A study of Rattus norvegicus with 8 samples.

Results

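Ccl2/Ccl7-high cells were the cell barcodes, among 8 single-cell libraries of cultured rat fracture callus cells, that held at least 5000 transcripts counted by unique molecular identifier (UMI) and at least 20 UMIs of Ccl2 plus Ccl7. There were 4288 of them among 65208 barcodes of that depth (6.58%, exact Clopper-Pearson 95% interval 6.39 to 6.77), out of 69624 barcodes in all. They are called members below. They were described against the low cells, those with at most 2 such UMIs, of which there were 54151, while 6769 middle cells held 3 to 19. Because the counts of Ccl2 and Ccl7 chose the cells, the levels of these genes are given as a description, and both were left out of every test.

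Ccl2 (MCP-1) and Ccl7 (MCP-3) are secreted chemokines that draw monocytes out of the blood into tissue through the receptor CCR2. Fibroblasts and osteoblast-lineage cells make them after injury, commonly downstream of NF-kB and AP-1, and monocytes that arrive in a fracture can become macrophages or osteoclasts. Grem1, which recurs below, encodes a secreted protein that binds bone morphogenetic proteins (BMPs) and keeps them from their receptors.

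The callus, the repair tissue of a broken bone, was taken from Sprague Dawley rats with a closed femoral fracture, and its cells were freed by a 4 h collagenase A digest and spent 24 h in a dish before capture. Each of the 8 libraries was 1 treatment at 1 time: untreated control, zoledronate, zoledronate with CGRP, or zoledronate with magnesium, each at week 4 and at week 12 after fracture. Zoledronate, a bisphosphonate that blocks bone resorption, had been injected weekly at 0.3 mg/kg over the 12 weeks that preceded fracture, and the libraries named CGRP and magnesium below therefore also carried it. The labels name steel and magnesium-containing nails without assigning them to groups. CGRP is a neuropeptide, calcitonin gene-related peptide. Its dose, the rats' ages and the animals per library are not stated there. With 1 library per group no treatment or time was tested, and the intervals cover counting error only.

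The libraries held 7541 to 10670 barcodes and 141264724 to 160177900 UMIs. Barcodes of at least 5000 UMIs had a median of 12742 to 20545 UMIs per library. Across libraries 535 barcode sequences recurred, at most 31 of them between any pair.

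The 250 bases before the start site of Ccl7 and, for comparison, of the neutrophil chemokine Cxcl1 are shown because both genes are textbook targets of the factors named above. They are from RefSeq, build GRCr8, for Ccl7 chr10:67513845-67514094 on the plus strand and for Cxcl1 chr14:17479322-17479571 on the minus strand. Capitals mark matches, on either strand, to the AP-1 motif TGANTCA, the NF-kB motif (GGGA, any 4 bases, CC) or the TATA box TATAAA.
Ccl7: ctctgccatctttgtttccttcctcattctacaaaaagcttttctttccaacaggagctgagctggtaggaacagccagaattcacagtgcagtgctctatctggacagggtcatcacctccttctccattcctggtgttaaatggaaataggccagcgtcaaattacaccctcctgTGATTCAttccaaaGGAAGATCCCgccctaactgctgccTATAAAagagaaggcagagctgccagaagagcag
Cxcl1: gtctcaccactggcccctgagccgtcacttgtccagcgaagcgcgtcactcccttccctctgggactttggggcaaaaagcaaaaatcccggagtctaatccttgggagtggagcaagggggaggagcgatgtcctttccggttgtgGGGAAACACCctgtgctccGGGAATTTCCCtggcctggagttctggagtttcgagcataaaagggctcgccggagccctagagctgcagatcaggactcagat
The Ccl7 sequence held 1 match to each motif, at -73 (AP-1), -59 (NF-kB) and -34 (TATA). In Cxcl1 there were 3 matches to the NF-kB motif, of which 2 overlap on opposite strands. Of 33469 RefSeq promoters of the same length, 6.34% held the AP-1 motif, 16.4% the NF-kB motif and 12.9% the TATA box. A match is a description of the letters only.

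Members were rare at week 4 and frequent at week 12. At week 4 they were 16 of 6809 cells in the control (0.235%, 0.134 to 0.381), 50 of 7652 with zoledronate (0.653%, 0.485 to 0.861), 41 of 8055 with CGRP (0.509%, 0.366 to 0.690) and 49 of 7268 with magnesium (0.674%). At week 12 they were 132 of 7777 cells in the control (1.70%, 1.42 to 2.01), 587 of 9278 with zoledronate (6.33%, 5.84 to 6.84), 898 of 10370 with CGRP (8.66%, 8.13 to 9.22) and 2515 of 7999 with magnesium (31.4%, 30.4 to 32.5). Each week 12 library stood above all 4 week 4 libraries, and the magnesium week 12 library alone held 58.7% of all members. The share there was 4.97 times that of zoledronate at the same week and 3.63 times that of CGRP. Together the week 12 libraries gave 4132 members and the week 4 libraries 156.

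**Figure D1:**
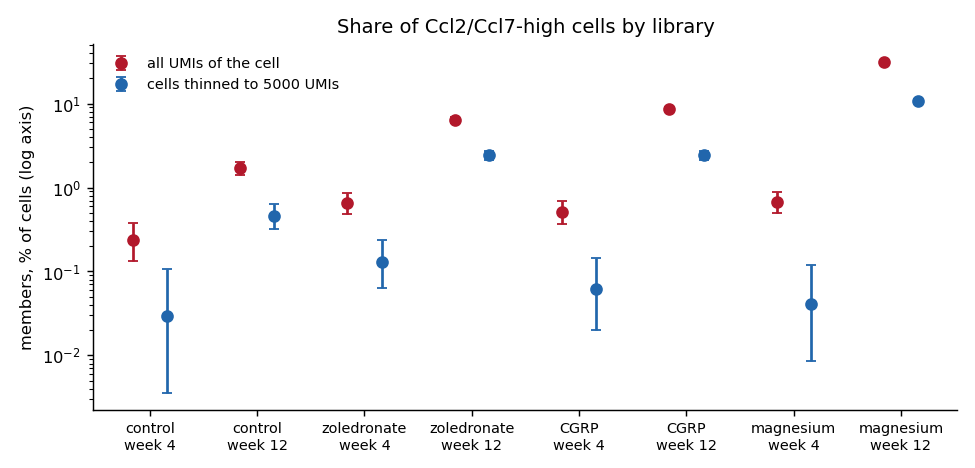
Share of cells that were members in each of the 8 libraries, in percent on a log axis, from all UMIs of a cell (red) and after each cell was thinned to 5000 UMIs (blue); bars are exact 95% binomial intervals. On both scales the magnesium week 12 library is the highest, at 31.4% and 10.8%, and every week 12 library lies above every week 4 library.

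A fixed UMI count is easier to reach in a deeper cell. After each cell was thinned at random to 5000 UMIs, the share fell to 0.463% in the week 12 control, 2.41% with zoledronate, 2.41% with CGRP and 10.8% with magnesium, and to at most 0.131% at week 4. CGRP and zoledronate at week 12, 8.66% and 6.33% before thinning, were then at a ratio of 0.999, and magnesium at week 12 remained 4.46 times zoledronate.

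As a description of the cells so chosen, between 75.0% (the 16 cells of the week 4 control) and 99.2% (CGRP week 12) of members had a UMI of each. Members, 31.4% of the magnesium week 12 cells, held 90.5% of that library's Ccl2 UMIs and 89.3% of its Ccl7 UMIs, while the 0.235% of week 4 control cells held 40.9% and 50%. The balance differed by week: a median member had 24 to 26 UMIs of Ccl2 and 7 to 9 of Ccl7 at week 4, against 19 to 30 of Ccl2 and 20 to 26 of Ccl7 at week 12. Per 1000000 UMIs of all genes, Ccl7 stood at 504 to 602 in members of the 4 week 4 libraries. At week 12 it was at 1571 to 1727, without overlap. Ccl2 did overlap, at 1287 to 1659 and 1488 to 2592. Week 4 members were deeper, with medians of 21973 to 25230 UMIs per library against 15826 to 20432 at week 12. A fixed UMI threshold is a lower level per 1000000 in a deeper cell, and how far this bears on these levels was not tested. Members had 2.18 to 2.90 UMIs of Ccl2 per UMI of Ccl7 in the week 4 libraries and 0.947 to 1.64 at week 12. Values of other genes below are per 1000000 UMIs without Ccl2 and Ccl7 (CPM). Members of CGRP at week 12 had more Ccl7 than Ccl2 in 51.6% of cells, and those of magnesium at week 4 in 12.2%.

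Counts ran on through the threshold without a gap. In the magnesium week 12 library 144 cells had 18 or 19 UMIs of the chemokines, just outside, and 106 had 20 or 21, just inside. A median member there had 56 such UMIs and the highest 1396. The library with most members also had the fewest cells at 0, 12.3% of its cells against 93.6% in the week 4 control.

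Members expressed stromal markers at high levels, as the low cells did. The 9 stromal markers listed summed to 63794 to 74459 CPM in members and 53603 to 71588 in low cells, and Col1a1 alone reached 13811 CPM or more in members of each library. Of 12 macrophage markers 7 were listed, and they summed to 9.57 to 87.8 CPM in members and 11.3 to 19.2 in low cells. The high end came from the zoledronate week 12 members, where Lyz2 (lysozyme) was at 59.7 CPM against 0.661 in low cells. In that library 625 of the 629 Lyz2 UMIs of members lay in 3 cells with a UMI of Tyrobp or Ptprc, a myeloid adaptor and the pan-leukocyte antigen CD45. Over all libraries 5 of 4288 members (0.117%, 0.0379 to 0.272) and 21 of 54151 low cells (0.0388%) had such a UMI. All of these lay in zoledronate week 12 (3 of 587 members, 0.511%, and 5 of 7765 low cells, 0.0644%) and CGRP week 12 (2 of 898, 0.223%, and 16 of 7435, 0.215%). Csf1r, the receptor of M-CSF, was seen in 60 members (1.40%) and 162 low cells (0.299%), and within magnesium week 12, where Tyrobp and Ptprc were at 0, in 1.55% of members and 0.808% of low cells. Of the 3 macrophage markers tested, Csf1r and Cd68 had log2 ratios of 1.62 and 1.27 (edgeR adjusted p = 0.113 and 0.149). Cd14, at a higher mean level, had a log2 ratio of -0.07 (edgeR adjusted p = 0.747). Whether cells with macrophage markers bear on the results was tested only by leaving out cells with Tyrobp or Ptprc. That removed cells from zoledronate week 12 and CGRP week 12 only. Of 11 blood markers 2 were listed, at up to 0.398 CPM in members. Endothelial markers (7 of 10 listed) summed to 40.7 to 55.0 CPM in members and 37.2 to 49.3 in low cells, and Vwf was at 0 in all members. The ratio was above 0 for 2 of 3 endothelial markers tested, and 0 were called. Mural markers (8 of 10 listed) summed to 17.1 to 162 CPM and 43.1 to 199, with Notch3 and Abcc9 at 0 in members. The ratio was above 0 for 4 of 5 mural markers tested, Myh11 being the 1 below, and 0 were called. Osteoclast markers (7 of 10 listed) summed to 85.4 to 184 CPM and 62.2 to 170.

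Members were compared with low cells of the same library, over sums of UMIs, in the 5 libraries with at least 50 cells on each side: all those of week 12, and zoledronate at week 4. These held 4182 members and 32673 low cells. Under edgeR's quasi-likelihood test with library as a block and Benjamini-Hochberg adjustment over 10349 genes, 114 genes were higher in members (1.1% of those tested) and 85 lower (0.821%), or 1.92% in all, at an adjusted p under 0.05. The counts were sensitive to single libraries: 24 higher and 37 lower without CGRP week 12, 15 and 20 without zoledronate week 12, 25 and 35 without zoledronate week 4, 308 and 197 without magnesium week 12. With the cells that had a UMI of Tyrobp or Ptprc left out, an alternative chosen after seeing the data, 124 were higher and 88 lower, among them all 199. This changed the sums of zoledronate week 12 and CGRP week 12 only. Members were deeper, with median UMIs 1.01 to 1.31 times those of low cells, and 17.7% of the magnesium week 12 members against 3.51% of its low cells lay in the top 10% of UMIs. With members and low cells matched 1 to 1 on depth, which kept 1900 of the 2515 magnesium week 12 members and tested 9022 genes, 89 were higher and 64 lower. Of these 123 were among the 199, of which 193 were tested.

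In BMP and activin signalling Grem1, Fst and Bmp2 were higher in members and Bmp4 was lower. These were 4 of 14 genes tested, where 1.92% of all genes were called. The median log2 ratio of the 14 was 0.01 against -0.01 over all genes. Grem1 was at 845, 156, 511, 865 and 1379 CPM in members of control week 12, zoledronate week 4, zoledronate week 12, CGRP week 12 and magnesium week 12, and at 161, 113, 176, 296 and 920 CPM in their low cells. Members were higher in each of the 5, but the low cells of magnesium week 12 were above the members of every other library. The fitted log2 ratio of Grem1 was 1.31 (SE 0.25, edgeR adjusted p = 0.0362).

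Fst, which encodes the activin-binding protein follistatin, had a log2 ratio of 1.10 (edgeR adjusted p = 0.0255), though at zoledronate week 4 its members were at 19.2 CPM and low cells at 23.5. Of the ligands, Bmp2 was higher (log2 ratio 0.85, adjusted p = 0.0475, and 0.64, adjusted p = 0.13, with depth matching). Bmp4 had a log2 ratio of -2.15 (not tested with depth matching, edgeR adjusted p = 0.0127), from a low level of at most 4.23 CPM in members of the fitted libraries.

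Of 8 stromal genes that regulate osteoclasts 2 were higher and 1 lower, against 1.1% and 0.821% of all genes. Their median log2 ratio was 0.26 against -0.01 over all genes. Csf1 encodes M-CSF, the growth factor of macrophages and osteoclast precursors. In members it was at 94.7, 115, 50.5, 148 and 166 CPM in the order given, and in low cells at 93.0, 33.0, 24.9, 65.4 and 92.1 CPM. The week 12 control showed almost no difference and the other 4 libraries had members above low cells by a wider margin. The log2 ratio was 0.92 (SE 0.18, edgeR adjusted p = 0.0368). Tnfrsf11b encodes osteoprotegerin, the decoy receptor that blocks RANKL. It was at 28.7, 23.4, 37.3, 53.5 and 37.5 CPM in members and at 38.3, 36.7, 49.7, 73.8 and 64.5 CPM in low cells. Members were lower in each, with a log2 ratio of -0.58 (SE 0.07, edgeR adjusted p = 0.00828). Wnt5a, a Wnt ligand, was higher, with a log2 ratio of 0.79 (adjusted p = 0.0248, and 0.0505 with depth matching). The RANKL gene itself, Tnfsf11, was not listed.

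The cells are named here by the 2 chemokines that chose them, since the tests on other genes of inflammation were mixed. Of 106 such genes tested, from 10 lists, 5 were higher (4.72%, against 1.1% of all genes) and 0 lower, and 73 had a ratio above 0. The 5 were Csf1, Il1rl1, Il4r, Cd55 and Ptgs1. Of the other CC chemokines 0 of 2 tested were called by edgeR (1 at an unadjusted p under 0.05, 1 by DESeq2), and 7 of 16 were not listed. Of the CXC and CX3C chemokines 0 of 6 were called (5 at an unadjusted p under 0.05, 2 by DESeq2). Over all genes, 895 had an unadjusted p under 0.05 on the higher side and 877 on the lower. Cxcl1 was at 3.38, 15.0, 5.79, 1.86 and 1.33 CPM in members of the 5 libraries and at 2.70, 0.391, 0.637, 0.683 and 0.443 CPM in low cells. It was above the low cells in each, at low levels, with a log2 ratio of 2.26 (SE 0.56, edgeR adjusted p = 0.0792, and 0.0481 with depth matching). Cxcl14 likewise gave 0.0746 and, depth matched, 0.0117.

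Of 8 cytokines tested 1 was higher, Csf1, and all 8 ratios were above 0, with a median log2 ratio of 0.51. Il1a, Il1b and Tnf were not listed, and Il6 was at 1.99 to 3.34 CPM in members of the fitted libraries and up to 3.28 CPM in low cells. Of 19 NF-kB genes and targets 0 were called by edgeR (8 at an unadjusted p under 0.05, 1 by DESeq2), with 15 of the ratios above 0 and a median log2 ratio of 0.27. Of 16 interferon response genes 0 were called (1 unadjusted, 0 by DESeq2, median 0.04). Of 11 class I antigen presentation genes 0 were called (2 unadjusted, 0 by DESeq2, median 0.06). Ptx3, a secreted pentraxin, had a log2 ratio of 1.10 (edgeR adjusted p = 0.0623, and 0.0242 with depth matching). Ccl20, Vcam1 and Lcn2 had log2 ratios of 1.82, 1.68 and 1.40 (edgeR adjusted p = 0.0732, 0.0707 and 0.063), and are named after their values were seen.

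Among 22 cytokine receptors 2 were higher, against 1.1% of all genes. Il1rl1 encodes ST2, the receptor of IL-33. In the order given it was at 717, 197, 135, 135 and 109 CPM in members and at 528, 83.2, 69.5, 93.9 and 52.0 CPM in low cells. The week 12 control was far above the rest in both classes, and the log2 ratio was 0.80 (SE 0.11, edgeR adjusted p = 0.00962). Il4r, the receptor chain shared by IL-4 and IL-13, had a log2 ratio of 0.66 (edgeR adjusted p = 0.0185). In the prostaglandin pathway 1 of 10 genes was higher, Ptgs1 (cyclooxygenase-1), with a log2 ratio of 0.97. Ptgs2, the inducible cyclooxygenase, had a log2 ratio of -0.20 (edgeR adjusted p = 0.789).

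**Figure D2:**
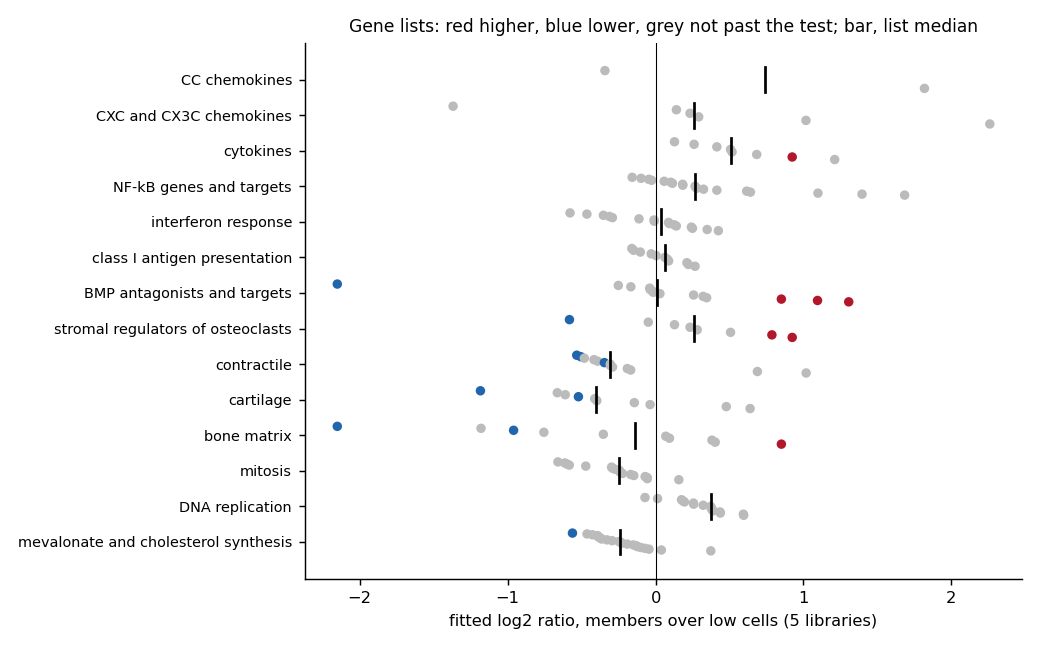
Fitted log2 ratio of members over low cells for each tested gene of 14 gene lists, over the 5 libraries fitted; red and blue points were higher and lower at an adjusted p under 0.05, grey points did not pass, and the black bar is the list's median. In the chemokine, NF-kB, interferon and class I lists 0 genes passed, while Grem1, Fst and Bmp2 passed on the higher side of the BMP list.

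The named genes were chosen from the 12 with the largest ratio in each direction among those past the test, at 20 CPM or more on average and with 1 sign in every fitted library. Dio3, which encodes the deiodinase that inactivates thyroid hormone, had the smallest p of all genes. It was at 47.3, 16.7, 32.2, 130 and 160 CPM in members and at 19.2, 7.20, 13.9, 54.8 and 73.0 CPM in low cells. Its level varied widely between libraries but the difference hardly did, with a log2 ratio of 1.18 (SE 0.06, edgeR adjusted p = 6.8e-05). Hopx, a small homeodomain protein, had the largest ratio of the genes so named: members were at 43.5, 42.5, 18.9, 28.0 and 23.8 CPM, low cells at 9.21, 28.9, 8.19, 11.3 and 9.43 CPM, and the log2 ratio was 1.31 (SE 0.18, edgeR adjusted p = 0.00989).

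The other genes with higher levels were the matrix protein Spon2 (log2 ratio 1.29), the annexin Anxa8 (1.01), the procollagen enhancer PCOLCE2 (0.96), LOC290595 (0.93), the microtubule regulator Stmn2 (0.90) and the basement membrane collagen Col15a1 (0.83), besides Grem1, Ptgs1 and Csf1. With low cells matched on depth, LOC290595 (adjusted p = 0.0787) and Stmn2 (0.0862) no longer passed. Plau, the urokinase protease, and Plaur, its receptor, were both higher, with log2 ratios of 1.51 and 0.67. They were 2 of 17 matrix protease and inhibitor genes, against 1.1% of all genes. Plau was at 11.6 and 7.30 CPM in members of magnesium and CGRP at week 12 and at 1.52 CPM or less in the other fitted libraries.

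Among the lower genes of the naming rule that are given here, Igf1, a growth factor, had the largest difference. Members were at 44.8, 20.01, 94.4, 161 and 102 CPM and low cells at 168, 60.2, 151, 423 and 127 CPM. As a ratio, the gap was widest in the week 12 control and narrowest with magnesium at week 12. The fitted log2 ratio was -1.08 (SE 0.20, edgeR adjusted p = 0.0307). Adarb1, an RNA-editing adenosine deaminase, was at 46.1, 45.0, 53.1, 16.9 and 18.2 CPM in members and at 92.9, 73.2, 102, 27.2 and 40.3 CPM in low cells. Members were lower in each, with a log2 ratio of -0.96 (SE 0.07, edgeR adjusted p = 0.00103).

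The other named genes on the lower side were the leucine-rich proteoglycan Aspn (log2 ratio -1.03), the focal adhesion protein Lims2 (-0.84), the calcification inhibitor Mgp (-0.83), the enkephalin precursor Penk (-0.83), Olfml2b (-0.79), the tetraspanin Tspan18 (-0.74), the lipid phosphatase Plpp3 (-0.73), Prr7 (-0.71) and the carbonic anhydrase Car9 (-0.70). With depth matching Mgp gave -0.27 (edgeR adjusted p = 0.416) and Aspn -0.62 (adjusted p = 0.219), so neither passed. Of the 22 named genes 21 passed without control week 12, 22 without magnesium week 12, 12 without CGRP week 12, 11 without zoledronate week 4 and 7 without zoledronate week 12, with direction kept.

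**Figure D3:**
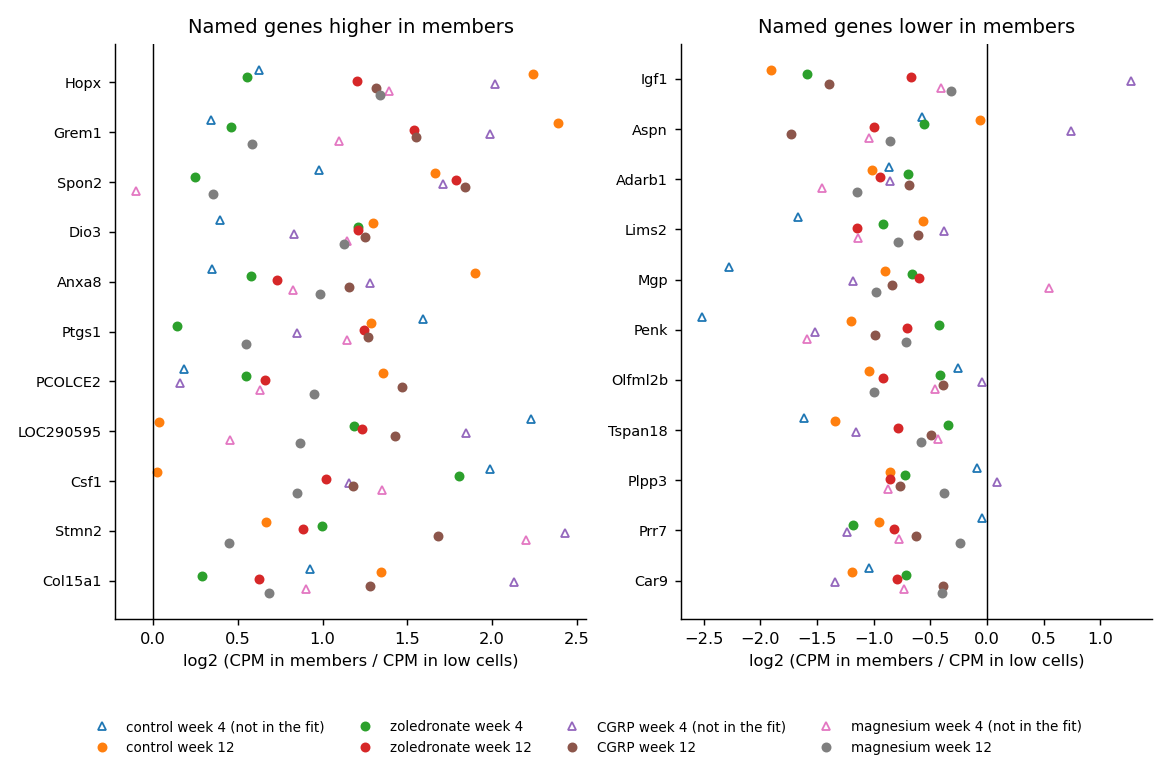
Log2 ratio of CPM in members over CPM in low cells for the 22 named genes, 1 point per library with more than 3 UMIs in both classes; filled circles are the 5 libraries fitted, open triangles the 3 week 4 libraries with 16, 41 and 49 members. The fitted libraries lie on 1 side of 0 by the choice of genes, and most triangles lie on the same side, with 3 of 11 lower genes opposite in CGRP week 4.

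The 3 week 4 libraries with fewer than 50 members took no part in the fit or in the choice of genes. Of the 199 genes, only those with more than 3 UMIs in both classes were compared. Their direction was the same for 120 of 150 in the control, 152 of 167 with CGRP and 159 of 174 with magnesium. For the higher genes this was 75 of 84, 90 of 98 and 93 of 99. The lower genes gave 45 of 66, 62 of 69 and 66 of 75. With so few members, a gene of low level is kept more readily where members are high, which favours agreement of the higher genes. The share over all genes was not computed. Named higher genes gave 10 of 10, 11 of 11 and 10 of 11. Named lower genes gave 10 of 10, 8 of 11 and 10 of 11. Grem1, for example, was at 71.8, 178 and 257 CPM in the few members of these libraries and at 56.6, 45.0 and 120 CPM in low cells. Igf1 went the other way with CGRP at week 4, at 42.7 CPM in members and 17.7 in low cells.

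Smooth-muscle type contractile genes were lower or not called. Of 13 tested 3 were lower, against 0.821% of all genes, and 0 higher, and the median log2 ratio was -0.31. The ratio was above 0 for 2, Myocd (1.02, edgeR adjusted p = 0.0704) and Des (0.69, adjusted p = 0.362). Acta2, alpha smooth muscle actin, was at 2215, 1981, 2670, 2204 and 2783 CPM in members and at 2839, 3114, 4445, 2356 and 4444 CPM in low cells. Members of all 5 libraries were lower, least so with CGRP, and the log2 ratio was -0.53 (SE 0.09, edgeR adjusted p = 0.0226). Lmod1 and Tpm1, actin filament proteins, had log2 ratios of -0.51 and -0.35, and with depth matching adjusted p-values of 0.077 and 0.0882.

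Calls among cartilage and bone genes were few, and most were on the lower side, where 0.821% of all genes were called. The ratio was below 0 for 8 of 10 cartilage genes and 5 of 10 bone matrix genes. In the cartilage list 2 of 10 were lower and 0 higher: the collagen Col11a1 (log2 ratio -0.52, adjusted p = 0.0336) and the link protein Hapln1 (-1.18, adjusted p = 0.0496, and 0.178 with depth matching). Among bone matrix genes 2 of 10 were lower, Bmp4 and Alpl, and 1 was higher, Bmp2. Alpl, alkaline phosphatase, had a log2 ratio of -0.96 (edgeR adjusted p = 0.0101). Of 17 fibrous matrix genes 1 was higher, Pdgfra, a growth factor receptor of mesenchymal cells, with a log2 ratio of 0.34 (adjusted p = 0.0399, and 0.0564 with depth matching). Col1a1 had a log2 ratio of -0.13 (edgeR adjusted p = 0.36).

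Immediate early genes split, with 3 higher and 2 lower of 22 tested, where 1.1% of all genes were higher and 0.821% lower. Fosl1, Egr2 and Klf4 were higher, by log2 ratios of 0.73, 0.55 and 0.45, and Jun and Atf3 were lower, by -0.66 and -0.90. With depth matching Egr2 and Atf3 still passed and the other 3 had adjusted p-values of 0.0841 (Fosl1), 0.0888 (Klf4) and 0.0574 (Jun). Hmox1, haem oxygenase, and Srxn1, sulfiredoxin, were the 2 genes higher of 18 antioxidant genes, with log2 ratios of 0.56 and 0.47. Of 22 mevalonate and cholesterol genes 1 was lower, Fdps, the enzyme that zoledronate inhibits, with a log2 ratio of -0.56 (adjusted p = 0.0491, and 0.152 with depth matching). In the untreated week 12 control, which is 1 library, Fdps was at 178 CPM in members and 378 in low cells. Whether its level depends on zoledronate was not tested. The ratio was below 0 for 20 of those 22 genes.

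In the remaining lists few genes passed, where 1.1% of all genes were higher and 0.821% lower. Cd55, a brake on complement, was the 1 higher of 9 complement genes (log2 ratio 0.99), and the kinase gene Sgk1 the 1 higher of 14 glucocorticoid response genes (0.71, adjusted p = 0.0465, and 0.108 with depth matching). Car9 was the 1 lower of 19 hypoxia and glycolysis genes. Phgdh, the entry enzyme of serine synthesis, was the 1 lower of 16 genes of the unfolded protein and amino acid response, at a log2 ratio of -0.54 (edgeR adjusted p = 0.00614). Of 8 skeletal progenitor markers tested 2 were higher, Grem1 and Pdpn. Pdpn, podoplanin, had a log2 ratio of 0.39 (edgeR adjusted p = 0.045, and 0.0574 with depth matching). The ratio was below 0 for 2 of the 8, Prrx1 (-0.29) and Cd200 (-0.24), and neither was called. The stromal marker S100a6, a calcium-binding protein, rose with a log2 ratio of 0.36 (edgeR adjusted p = 0.0209). Among 13 p53 and cell cycle inhibitor genes edgeR called 0 (5 at an unadjusted p under 0.05, 0 by DESeq2), and among 3 chemokine receptors 0 (0 and 0).

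**Figure D4:**
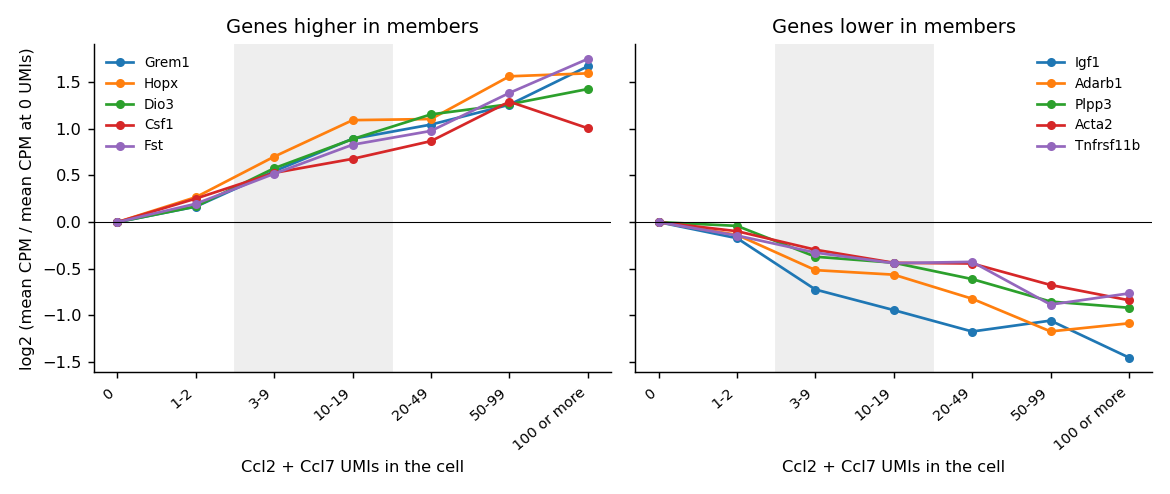
Mean CPM over the 5 fitted libraries of 5 genes higher (left) and 5 lower (right) in members, in cells grouped by their UMIs of Ccl2 plus Ccl7, as log2 of the ratio to cells with 0; the grey band marks the middle cells, which the test did not use. The genes plotted move by steps through the middle cells: Grem1 runs from 320 CPM at 0 UMIs to 1019 at 100 or more, and Acta2 from 3504 to 1962.

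Some genes were graded over the chemokine count. Grem1 averaged 320 CPM over the 5 libraries in cells with 0 UMIs of the chemokines, 359 with 1 to 2, 467 with 3 to 9, 595 with 10 to 19, 661 with 20 to 49, 766 with 50 to 99 and 1019 with 100 or more. Adarb1 went over the same groups from 68.1 to 62.0, 47.7, 46.1, 38.6, 30.3 and 32.1 CPM. The 6221 middle cells of these libraries were not used by the comparison, and their means lay between those of low cells and members for both genes. Other genes were not ordered throughout. Il1rl1 was highest, at 293 CPM, with 10 to 19 UMIs, against 275, 226 and 227 in the groups above. Mgp went from 211 to 270 CPM within the middle cells, and Penk from 38.5 CPM with 10 to 19 UMIs to 66.4 with 50 to 99. Csf1 rose from 58.4 CPM to 143 at 50 to 99 UMIs and was at 117 at 100 or more. For every gene the means of these groups rest on few cells in some libraries. The smallest library had 6 cells with 50 to 99 UMIs and 8 with 100 or more.

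Proliferation did not differ in 1 direction. Of 18 mitosis genes edgeR called 0 (1 at an unadjusted p under 0.05, 0 by DESeq2), and of 17 DNA replication genes 0 (4 and 0). The ratio was below 0 for 17 of the 18 mitosis genes and above 0 for 16 of the 17 DNA replication genes. The median log2 ratios of the mitosis and DNA replication lists were -0.24 and 0.37. After thinning to 5000 UMIs, Mki67, a marker of cycling cells, was detected in 12.9% of members and 24.3% of low cells of the week 12 control, in 3.58% and 3.64% with zoledronate, in 13.6% and 9.60% with CGRP and in 15.5% and 5.94% with magnesium at week 12. Without thinning these were 23.5% and 38.2%, 6.64% and 5.99%, 22.8% and 14.2%, and 26.2% and 11.5%. With cells that had a UMI of Mki67 or Top2a left out, which also dropped zoledronate week 4 at 38 members, 104 genes were higher and 79 lower.

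**Figure D5:**
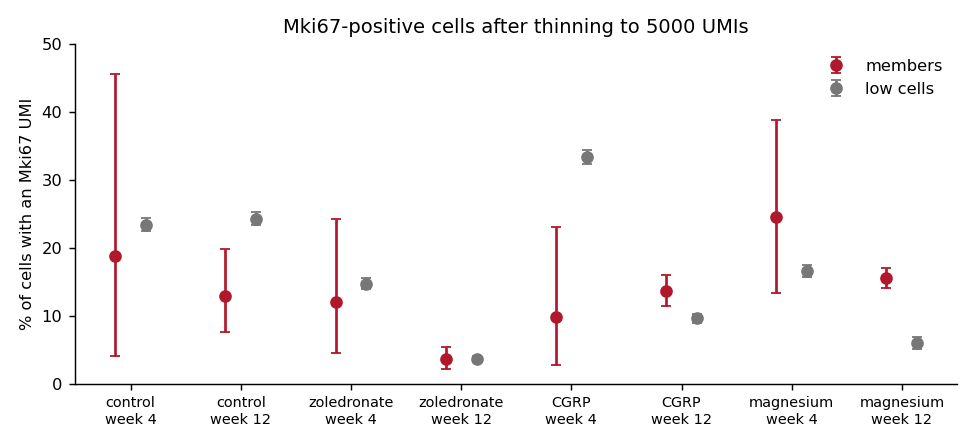
Percent of members (red) and low cells (grey) with an Mki67 UMI after thinning to 5000 UMIs, by library, with exact 95% binomial intervals. Members lie below low cells in control week 12 (12.9% against 24.3%) and above them in magnesium week 12 (15.5% against 5.94%).

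Whether the difference between members and low cells depended on the week could hardly be tested, because only 1 week 4 library, of 50 members, entered the fit. The class by week term of edgeR's test called 0 genes in either direction (0.0% of those tested), and 395 of 10349 had an unadjusted p under 0.05. With all 8 libraries it again called 0. This does not show that members were alike at both weeks.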

How the data were processed

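The authors deposited 1 table of UMI counts per library, genes by barcodes. STAR and the build Rnor_6.0 are named, per the submitters' processing notes; the sources used here do not state cell calling, gene filters or doublet removal. No doublet caller was run, and leaving out cells in the top 10% of UMIs was an alternative. Genes not listed in a library were taken as 0 there. Members and low cells were chosen by total and chemokine UMIs, with no clustering. UMIs were summed per class and library, without Ccl2 and Ccl7. In R 4.3.3 with edgeR 4.0.16, genes kept by filterByExpr were fitted (TMM, glmQLFit, glmQLFTest) with library as a block, since both classes came from the same library, and called at an adjusted p under 0.05. DESeq2 1.42.0 was an alternative. The script was tested on simulated data. Each library is a different condition, and nothing says how many animals it holds, so p-values measure the spread between these 5 libraries. CPM are UMIs per 1000000 of all others than Ccl2 and Ccl7. Levels of Ccl2 and Ccl7 themselves are per 1000000 of all UMIs. Thinning drew 5000 UMIs per cell without replacement. Intervals are exact (Clopper-Pearson). Ratios of a single library need more than 3 UMIs in both classes. The members, 26 gene lists and 7 marker lists were chosen with earlier results of these data known. Named genes were the 12 with the largest log2 ratio in each direction among calls at a mean of at least 20 CPM with 1 sign in every fitted library, of which 11 in each direction are given and the rest are not reported here; lists gave up to 4 examples past the test, and other genes (such as Cxcl1, Ptx3, Il6, Ptgs2 and Col1a1) are named for their role.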

Additional observations from a re-analysis of the deposited data

Results flagged for a closer look

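The share of cells with an Mki67 UMI, thinned to 5000 UMIs, differed between members and low cells in opposite directions in different libraries, with 95% counting intervals that did not overlap. Members were lower by 11.4 percentage points in the week 12 control (a difference of -11.4) and with CGRP at week 4 (-23.6, from 41 members, whose unthinned share of 36.6%, 22.1 to 53.1, overlapped the 48.7%, 47.6 to 49.8, of low cells), and higher with CGRP at week 12 (3.98) and with magnesium at week 12 (9.61). The difference between libraries was not tested, since each is a single library.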

How the results depend on the processing

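The counts of genes higher and lower in members, 114 and 85, moved by more than 1.5 times under these settings: 290 and 192 with DESeq2, 489 and 403 with members from 10 UMIs, 40 and 35 from 40 UMIs, 47 and 45 with 20 UMIs per 10000, 24 and 31 with a minimum of 10000 UMIs, 39 and 46 without the top 10% of UMIs, 25 and 35 in week 12 libraries alone, and 395 and 328 with all 8 libraries (added after seeing the data). Zoledronate week 4, with 50 members, fell under the minimum of 50 in those with 40 UMIs, per 10000 UMIs, the higher minimum and the top 10% left out, so 4 libraries were fitted there. From 10 UMIs, CGRP week 4 (80 members) and magnesium week 4 (105) entered, so 7 were. With no replicate block, which ignores that both classes share a library, the counts were 0 and 0. Leaving out 1 library gave 15 to 308 higher and 20 to 197 lower. All 199 genes kept their direction in every setting that tested them, and 18 of the 22 named genes passed with depth matching. For the class by week term the counts stayed at 0, except 2 lower in all 8 libraries without control week 12, where leaving out 1 library otherwise gave 0. The member share of 6.58% was 9.77% from 10 UMIs, 3.91% from 40, 6.82% with the higher minimum, 2.13% thinned, 4.20% per 10000 UMIs and 6.18% of all barcodes. Week 4 alone was not run, since 1 library leaves no residual degrees of freedom, and the class by week term could not be fitted without zoledronate week 4. A gene below about 1 CPM rests on few UMIs in a class of 50 cells.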

Other observations

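Some genes past the test outside the naming rule were noticed after their values were seen. Scx, the tendon and ligament transcription factor, had a log2 ratio of -0.70 (edgeR adjusted p = 0.00261). The Notch ligand gene Jag1 (log2 ratio -0.63, adjusted p = 0.00614) and the Notch target Hey2 (-1.28, adjusted p = 0.0489) were both lower in members. Pln, the calcium pump regulator phospholamban of muscle, had a log2 ratio of -2.17 (edgeR adjusted p = 0.00828) at a mean of 7.17 CPM.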
